A study of Mus musculus with 6 samples.

Results

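Small nucleolar RNAs (snoRNAs) were followed in iNKT cells (invariant natural killer T cells) from mice expressing a constitutively acetylated PLZF. The 73 genes described here are those whose only annotated symbol began with Snora or Snord, out of 22180 different genes measured with a single symbol. They came from 75 of 23521 such array rows, and 26 are H/ACA genes (Snora) and 47 are C/D genes (Snord). Where a gene had several rows, the one brightest on average across the 6 arrays was taken, which applied to Snora33 and Snora19.

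Total RNA of iNKT cells was measured on Affymetrix whole-transcript arrays in 2 groups of 3, one array a sample. The control group is labelled WT, and the other, PLZF_ON, is given as mice with a constitutively acetylated form of the transcription factor PLZF, the product of Zbtb16. The submitters name replicates 1 and 2 of each group as the arrays they analysed, so those 4 arrays are the main comparison here, and values over all 6 are given beside it. By the labels, RNA was taken from frozen tissue. The sources used here do not give the organ, the age, how the cells were isolated, what drives the allele or whether animals were pooled. They also do not say that the replicates are separate animals, so a p-value measures only the spread between these samples.

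snoRNAs are short nuclear RNAs that guide chemical modification of ribosomal RNA. H/ACA snoRNAs pair with the enzyme dyskerin (Dkc1) and direct pseudouridylation, and C/D snoRNAs pair with fibrillarin (Fbl) and direct methylation of the ribose. A few, such as U3, U8, U13 and the Snora73 RNAs, act in the cleavage or folding of the ribosomal RNA precursor or help another enzyme modify it. Most mammalian snoRNAs are cut from the introns of host genes, many of which encode ribosomal proteins or nucleolar proteins, while a few host genes (the Snhg genes, Gas5) have no known protein product. U8 and U13 are made from genes of their own.

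One array stood apart before any comparison. PLZF_ON replicate 3 correlated with the other arrays at Pearson r of 0.941 to 0.944 over all rows with 1 symbol, while the other 5 arrays correlated with each other at 0.972 to 0.987. Its log2 values had an SD over rows of 1.61, against 1.85 to 1.91 in the others. Of 4 measured genes listed as markers of CD8 T cells and double-positive thymocytes, the median level was 6.87 in PLZF_ON replicate 3 and 4.08 to 4.38 in the other arrays, and for 5 myeloid markers it was 5.09 against 3.96 to 4.48. Of the CD8 and thymocyte genes Dntt, a thymocyte enzyme, read 7.19 there and 3.46 to 4.10 elsewhere, and of the myeloid genes Lyz2, lysozyme, read 6.58 and 3.96 to 4.48. The other myeloid genes moved less. Itgam read 5.24, within its 4.83 to 5.61 elsewhere, and Csf1r, Adgre1 and Cd14 read 5.09, 3.96 and 4.03, against at most 4.71, 3.91 and 3.65. The receptor genes used below for background also had a higher median there, 3.40 against 2.88 to 2.99. T cell markers (5 of 5 measured) and iNKT cell markers (6 of 6 measured) lay above the background level defined below, and B cell markers (0 of 4) did not. The median of the iNKT markers was 10.10, 10.10 and 9.56 in the WT arrays and 9.32, 9.13 and 8.31 in the PLZF_ON arrays. Its genes went both ways in replicates 1 and 2: Il2rb, Klrb1c and Tbx21 read lower in both PLZF_ON arrays than in both WT arrays, Zbtb16 and Gata3 read higher, and Icos overlapped. The part of other cells, of RNA quality or of the make-up of the iNKT population in the snoRNA values was not tested, and in bulk RNA fewer cells of a type cannot be told apart from less RNA per cell.

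All levels are the deposited log2 values, so a difference of 1 is a factor of 2. A level was called above background when its mean over the 6 arrays exceeded 5.21, which 95% of 1394 odorant and pheromone receptor genes (Olfr and Vmn), not expected in these cells, lay below. By that measure 60 of the 73 snoRNA genes were above background, 21 of 26 H/ACA and 39 of 47 C/D. Probes differ in their response, so levels of different genes are not ranked against each other here.

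In replicates 1 and 2, snoRNA genes lay lower in PLZF_ON more often than higher, but no single one passed the test. The difference (PLZF_ON minus WT) was below 0 for 47 of 73 genes, 20 of 26 H/ACA and 27 of 47 C/D, against 50.9% of all genes. Its median was -0.29 for H/ACA genes (quartiles -0.49 and -0.05), -0.14 for C/D genes (quartiles -0.44 and 0.18) and -0.21 over both classes, beside a median of 0.00 over all genes. With limma and Benjamini-Hochberg adjustment over all 23521 rows, 0 of 75 snoRNA rows passed an adjusted p of 0.05, where 0.17% of all rows did. At an unadjusted limma p under 0.05, 15 of the 75 rows passed.

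Of those 15, 13 were lower in PLZF_ON (4.5% of all genes met the same rule) and 2 were higher (4.68% of all genes). Both PLZF_ON arrays lay below both WT arrays for 23 of 73 members, 10 H/ACA and 13 C/D, against 19.3% of all genes. Both lay above for 3 of 73, Snora68, Snord15a and Snord65, against 18.8% of all genes. The counts thus lay above the background on the lower side, and below it on the higher side. However, snoRNA genes varied more than other genes. Deviations from the other 5 arrays had quartiles 0.66 to 0.81 apart, against 0.31 to 0.32 over all genes. In PLZF_ON replicate 3, not counted in those ranges, they were 1.56 and 0.73 apart. Because limma draws each row's variance towards that of all rows, the share over all genes is not a like background for unadjusted p-values. The genes were chosen by name, but the subject was proposed with results of these data known.

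**Figure D1:**
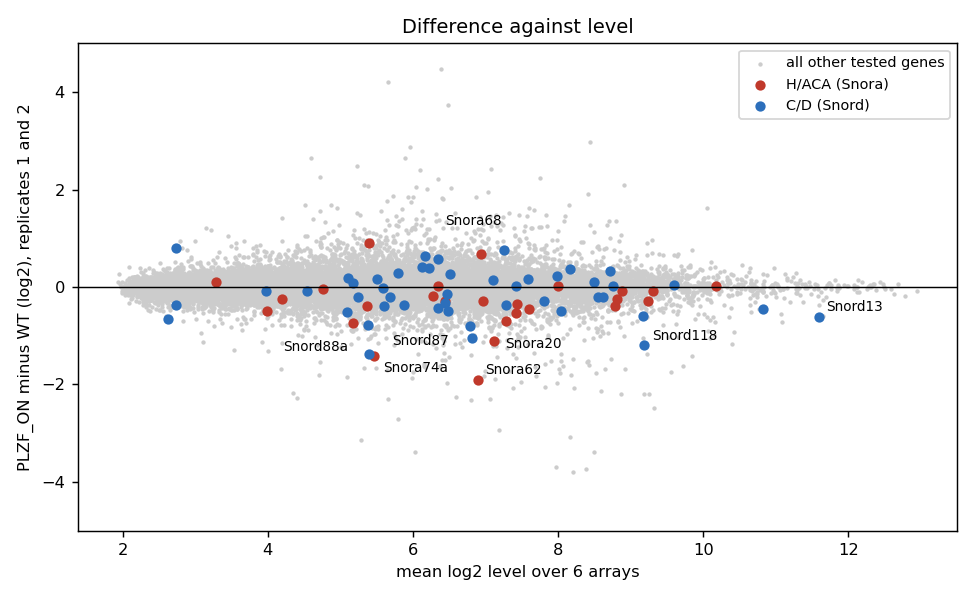
Log2 difference between PLZF_ON and WT over replicates 1 and 2 (y axis) against the mean log2 level over 6 arrays (x axis), with every tested gene in grey, H/ACA genes in red and C/D genes in blue. The labelled Snora62 lies at a difference of -1.90 and Snord118 at -1.19, and the red points sit mostly below 0.

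The class medians show how much each array contributes. The median level of the 26 H/ACA genes in WT was 6.68, 6.98 and 7.38 (replicates 1 to 3) and in PLZF_ON 6.31, 6.67 and 7.54. For the 47 C/D genes it was 6.62, 7.01 and 6.90 in WT and 6.66, 6.65 and 6.66 in PLZF_ON. Over replicates 1 and 2 the H/ACA medians of PLZF_ON lay below both WT medians, but barely so for PLZF_ON replicate 2 (6.67) beside WT replicate 1 (6.68). Over the WT arrays alone the H/ACA median had an SD of 0.35. The C/D median of WT replicate 1 lay just below the PLZF_ON ones. The C/D shift rests on WT replicate 2: without it the median C/D difference was 0.11. The H/ACA median difference stayed below 0 but was -0.16 without WT replicate 2 and -0.15 without PLZF_ON replicate 1. The order of the classes was not stable: the C/D median difference minus the H/ACA one was 0.15 over the 4 arrays, 0.14 with only PLZF_ON replicate 3 left out, -0.17 over all 6, and -0.02 over the 4 arrays without PLZF_ON replicate 2.

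**Figure D2:**
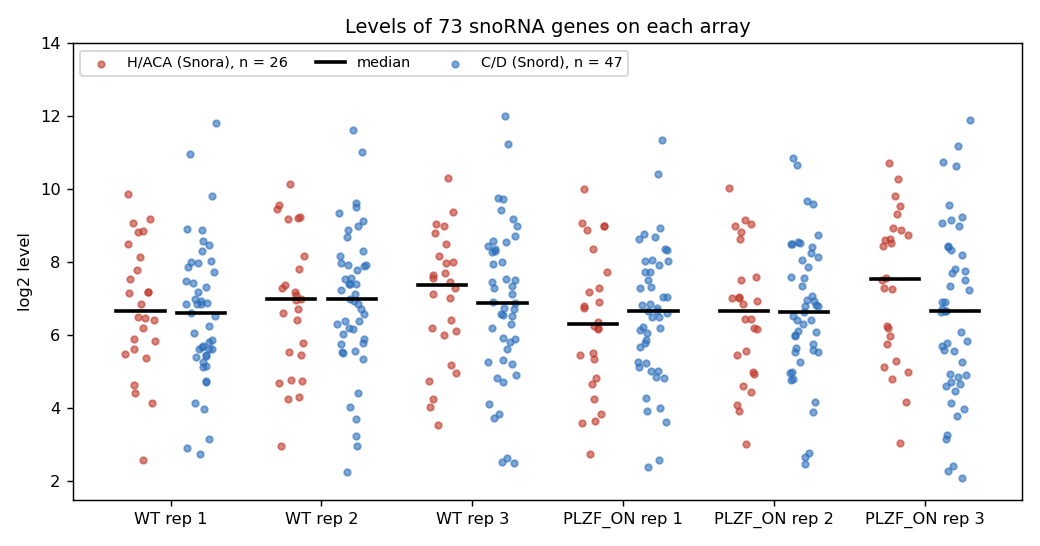
Log2 level of each snoRNA gene (points) in each of the 6 arrays, H/ACA and C/D genes apart, with the class median as a bar. The H/ACA median is highest in PLZF_ON replicate 3, at 7.54, and lowest in PLZF_ON replicate 1, at 6.31.

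Among the members listed here for precursor processing (Snord118, Snord13, Snora73a and Snora73b), Snord118 had the largest difference. Snord118 is U8, a C/D RNA needed to make the large-subunit ribosomal RNAs. WT replicates 1 to 3 read 9.82, 9.52 and 9.76, and the PLZF_ON replicates 8.70, 8.26 and 9.08. All 3 PLZF_ON arrays lay below all 3 WT arrays, PLZF_ON replicate 3 included. Over replicates 1 and 2 the difference was -1.19 (SE 0.20, n = 2 a group), 2.29-fold lower, with a limma adjusted p of 0.115. Over all 6 arrays it was -1.02 (SE 0.23, n = 3 a group), with a limma adjusted p of 0.298. With only PLZF_ON replicate 3 left out it was -1.22 (SE 0.17), with a limma adjusted p of 0.0477, and there Snord118 was the 1 snoRNA row of 75 that passed (0.455% of all rows did).

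The other members of that list were lower in replicates 1 and 2 by smaller amounts. Snord13 is U13, which helps guide acetylation of the small-subunit ribosomal RNA, and it read 11.82, 11.64 and 12.00 in WT and 11.36, 10.87 and 11.89 in PLZF_ON. Its difference over replicates 1 and 2 was -0.61 (SE 0.20), with a limma adjusted p of 0.397, and with replicate 3 the groups overlapped. Snora73a and Snora73b, near-identical H/ACA RNAs that take part in making small-subunit ribosomal RNA and share the host Snhg3, read 6.50, 6.73 and 7.30 (Snora73a) and 7.20, 7.30 and 7.65 (Snora73b) in WT. In PLZF_ON they read 6.21, 6.46 and 8.63 (Snora73a) and 6.80, 7.03 and 8.62 (Snora73b). Both lay below WT in replicates 1 and 2 and above every WT array in replicate 3, and as copies of each other they may share probe signal and are not independent. These 4 genes had a median difference of -0.47 in replicates 1 and 2, and a median of 0.65 in PLZF_ON replicate 3 minus the WT mean.

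U3 itself, a C/D RNA carried here under the symbol Rnu3a and so outside the 73, read 11.53, 11.36 and 11.96 in WT and 11.16, 11.20 and 12.69 in PLZF_ON. It had the same order as U13 in replicates 1 and 2, with a difference of -0.26 (limma adjusted p = 0.658). The 3 other measured genes with symbols starting with Rnu, the spliceosomal Rnu11, Rnu12 and Rnu5g, differed by -0.32, -0.72 and -1.17 over replicates 1 and 2 (limma adjusted p of 0.595, 0.171 and 0.369). All 4 lay lower in both PLZF_ON arrays of that comparison, and higher than the WT mean in PLZF_ON replicate 3, by 0.29 to 1.12.

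Among the guide RNAs of the H/ACA class, Snora62 had the largest difference in replicates 1 and 2. Snora62, also called E2, lies in the gene of the ribosomal protein Rpsa. WT replicates 1 to 3 read 7.20, 7.00 and 8.01, and the PLZF_ON replicates 4.83, 5.57 and 8.75. The first 2 PLZF_ON arrays lay below every WT array, and replicate 3 lay above every one. The difference over replicates 1 and 2 was -1.90 (SE 0.25, n = 2 a group), with a limma adjusted p of 0.075, the smallest among the 75 rows. The PLZF_ON mean in it was 5.2, not above the background level of 5.21, so the exact size of the difference is not settled. Without PLZF_ON replicate 3 alone it was -2.20 (limma adjusted p = 0.0547), and over all 6 arrays -1.02 (limma adjusted p = 0.941).

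Snora74a, also called U19, lies in the non-coding host Snhg4 and read 5.39, 5.55 and 7.72 in WT against 3.66, 4.44 and 5.97 in PLZF_ON. WT replicate 3 and PLZF_ON replicate 3 were each the highest of their group. The groups overlapped once PLZF_ON replicate 3 was included, because it lay above WT replicates 1 and 2. Its difference over replicates 1 and 2 was -1.42 (SE 0.26, limma adjusted p = 0.146), with both PLZF_ON values under the background level. Snora78 lies in both Rps2 and Snhg9 and read 7.80, 7.38 and 7.46 in WT and 6.91, 6.87 and 7.28 in PLZF_ON. Its groups did not overlap over all 6 arrays, and the difference over replicates 1 and 2 was -0.70 (SE 0.18, limma adjusted p = 0.264). Snora68 was the 1 H/ACA gene with both PLZF_ON arrays above both WT arrays in replicates 1 and 2, with 6.19, 6.60 and 7.12 in WT and 7.19, 6.95 and 7.57 in PLZF_ON. The difference was 0.68, with a limma adjusted p of 0.305.

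Among the C/D guide RNAs, Snord88a had the largest difference, and it rested on 1 array. It read 5.62, 7.13 and 4.92 in WT and 5.03, 4.96 and 4.72 in PLZF_ON, so that WT replicate 2 was far above the rest. Its difference over replicates 1 and 2 was -1.38 (SE 0.45, limma adjusted p = 0.407), again with PLZF_ON under the background level. With WT replicate 1 left out, it was -2.13 with a limma adjusted p of 0.0271, in a fit where WT is WT replicate 2 alone and is assumed to vary like the other group.

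Snord87, which lies in both Snhg6 and Mcmdc2, had more even replicates, with 7.00, 7.58 and 6.58 in WT and 6.16, 6.32 and 7.23 in PLZF_ON. Its difference over replicates 1 and 2 was -1.05 (SE 0.21, limma adjusted p = 0.179), and replicate 3 had the opposite order. Snord11, in the C/D core protein gene Nop58, read 6.87, 7.79 and 7.13 in WT and 6.61, 6.43 and 5.84 in PLZF_ON. Every PLZF_ON array lay below every WT array, with a difference of -0.81 over replicates 1 and 2 (limma adjusted p = 0.463) and -0.97 over all 6.

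Snord104, a methylation guide, kept a small difference with little spread, reading 10.97, 11.02 and 11.23 in WT and 10.42, 10.68 and 10.63 in PLZF_ON. The difference was -0.45 (SE 0.15, limma adjusted p = 0.419) over replicates 1 and 2 and -0.50 (SE 0.16, limma adjusted p = 0.613) over all 6, with no overlap. Snord15a, a methylation guide, lies in Rps3 and was the 1 member higher in every PLZF_ON array than in any WT array, with 5.72, 5.34 and 5.90 in WT and 6.24, 6.08 and 7.75 in PLZF_ON. Its difference was 0.63 over replicates 1 and 2 (limma adjusted p = 0.302) and 1.04 over all 6 (limma adjusted p = 0.824).

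**Figure D3:**
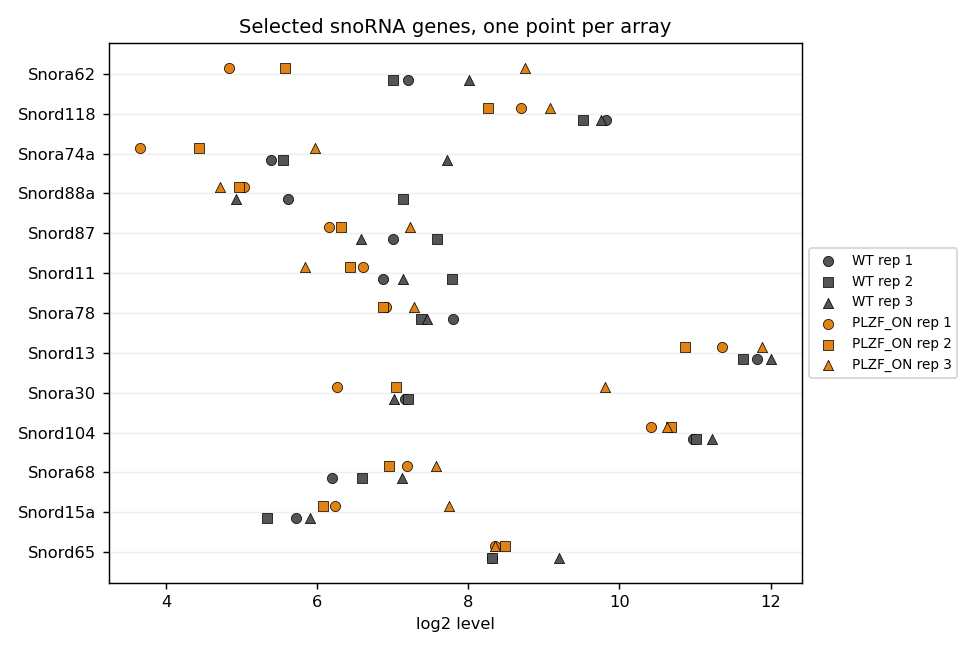
Log2 level in each array for chosen snoRNA genes, WT and PLZF_ON as separate points with replicate 3 marked. Snord118 is split by group in all 6 arrays, from 8.26 to 9.08 in PLZF_ON and from 9.52 to 9.82 in WT, while Snora62 is split in replicates 1 and 2 with PLZF_ON replicate 3 above all WT arrays.

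Over all 6 arrays the lean to lower values was smaller. The difference was below 0 for 41 of 73 genes, against 45% of all genes, and its median was -0.05 for H/ACA and -0.22 for C/D genes. By limma 0 of 75 rows passed an adjusted p of 0.05 (0.0935% of all rows did), and 6 passed an unadjusted p under 0.05, of which 5 were lower (3.33% of all genes) and 1 was higher (2.3% of all genes). The groups did not overlap, with PLZF_ON lower, for 8 members, against 6.27% of all genes. They were Snora28, Snora78, Snord104, Snord118, Snord23, Snord11, Snord110 and Snord70, of which Snora28, Snord23 and Snord70 are named only because the count is listed in full. Snord15a was the 1 member with PLZF_ON higher, against 5.47% of all genes. With PLZF_ON replicate 3 alone left out, the difference was below 0 for 52 of 73 genes (53% of all genes), with no overlap for 18 lower (13.8% of all genes) and 1 higher (11.8% of all genes). An unadjusted limma p under 0.05 was then met by 13 lower (4.65% of all genes) and 1 higher (4.85% of all genes).

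In PLZF_ON replicate 3 many snoRNA genes lay far from their level in the other arrays, the H/ACA genes among them mostly above it and the C/D genes on both sides. Against the mean of the other 5 arrays, 30 of 73 members stood off by more than 1 on the log2 scale, 19 up and 11 down, where 9.13% of all genes did and 15.4% of the genes whose mean level lay between the members' quartiles. The next highest counts were 14, in PLZF_ON replicate 1 (0.708% of all genes), and 12, in WT replicate 3 (1.07% of all genes). The lowest was 4, in WT replicate 1 (1.01% of all genes). H/ACA genes stood 1 up and 6 down in PLZF_ON replicate 1, and 5 up and 1 down in WT replicate 3. Over all genes the counts were 108 up and 49 down in PLZF_ON replicate 1, and 142 up and 96 down in WT replicate 3. In PLZF_ON replicate 3, 9 H/ACA genes stood up and 1 down, and 10 C/D genes stood up and 10 down. Over all 22180 genes 567 stood up and 1459 down there. Whatever the size, 15 of 26 H/ACA and 21 of 47 C/D genes lay above the WT mean in it, as did 12825 of 22180 genes. Of the 7477 genes whose mean level lay between the members' quartiles, 2424 did. This is a description of 1 array, with no test.

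Against WT replicate 3 alone, PLZF_ON replicate 3 had a median difference of 0.35 over H/ACA genes and -0.24 over C/D genes (0.07 over all genes). Against the WT mean its median difference was 0.52 over H/ACA genes and -0.23 over C/D genes. The median was 0.10 over all genes, 0.35 over 472 microRNA genes and 0.38 over the receptor genes, but -0.28 over genes above background. The C/D value depends on scaling: it was 0.03 after the arrays were quantile normalised again, while the H/ACA value was then 0.50. PLZF_ON replicate 3 was above all other 5 arrays for 12 H/ACA and 13 C/D genes (40.3% of all genes) and below them all for 2 H/ACA and 17 C/D genes (27% of all genes). Among the genes whose mean level lay between the members' quartiles, it was above for 17.3% and below for 49.1%, so the shares depend on level. The levels of the 73 genes in it correlated with their mean in the other 5 arrays at Pearson r of 0.83. Each other array gave 0.92 to 0.96 against the mean of the other 4 without PLZF_ON replicate 3 (73 genes, which are not independent replicates). By class, PLZF_ON replicate 3 gave 0.87 for H/ACA genes, where the others gave 0.87 to 0.98 (0.87 in WT replicate 3). For C/D genes it gave 0.83, where the others gave 0.95 to 0.96.

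**Figure D4:**
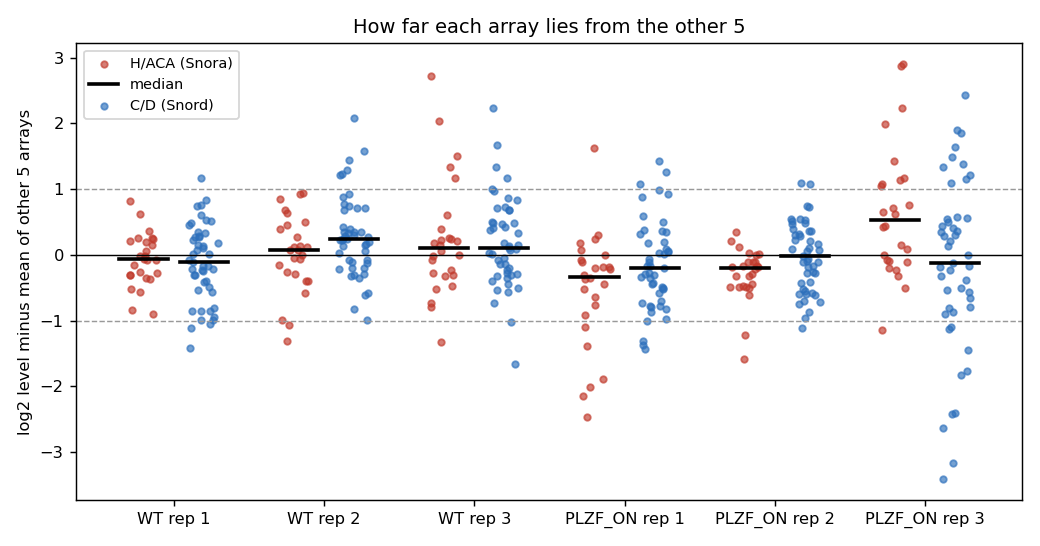
Deviation of each snoRNA gene from its mean in the other 5 arrays (log2), by array and class. PLZF_ON replicate 3 spans -3.41 to 2.90, while the other arrays span -2.48 to 2.72.

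The C/D genes furthest below in PLZF_ON replicate 3 varied less among the other arrays than they differed from them. Snord92 read 6.53, 6.03 and 7.52 in WT and 6.85 and 6.52 in PLZF_ON replicates 1 and 2, but 3.28 in replicate 3. Snord110 read 6.94, 7.01 and 7.55 in WT, 6.49 and 6.83 in PLZF_ON replicates 1 and 2, and 3.80 in replicate 3. Snord73a, in the ribosomal protein gene Rps3a1, read 6.62, 7.42 and 6.74 in WT and 6.50, 6.65 and 4.15 in PLZF_ON. In each of them the replicate 3 value lay outside the range of the other 5 arrays by more than that whole range, and each was under the background level of 5.21 there, so the exact size of the difference is not settled.

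Snord19, in the nucleolar protein gene Gnl3, read 5.28, 6.20 and 4.73 in WT and 6.07, 5.60 and 3.15 in PLZF_ON, and its mean was not above background. Snord35a, a guide in Rpl13a and the only member there, read 5.62, 6.93 and 6.91 in WT and 6.75, 6.95 and 4.86 in PLZF_ON, with replicate 3 again the lowest.

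Other snoRNA genes stood above, by up to 2.68 from the WT mean. Snora30 read 7.16, 7.20 and 7.02 in WT and 6.26, 7.04 and 9.81 in PLZF_ON, so its difference was -0.53 over replicates 1 and 2 and 0.57 over all 6. Snora20 read 6.86, 7.83 and 6.02 in WT and 5.45, 7.03 and 9.54 in PLZF_ON. Snord17, in the sorting nexin gene Snx5, read 8.91, 8.88 and 9.44 in WT and 8.03, 8.55 and 11.20 in PLZF_ON. These were below or within the WT range in replicates 1 and 2 and the highest of the 6 arrays in replicate 3.

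Snord85 stood 1.85 above the WT mean in PLZF_ON replicate 3, with a mean level not above background. Snora75 (9.09, 9.25 and 9.04 in WT, 9.01, 9.17 and 10.28 in PLZF_ON) was close to constant in the other 5 arrays. The remaining H/ACA genes with the highest means lay closer to WT in it, with PLZF_ON replicate 3 minus the WT mean at 0.63 for Snora33, -0.03 for Snora21, -0.51 for Snora31 and 0.03 for Snora23. Snora2b, not above background, was the 1 H/ACA gene more than 1 below the mean of the other 5 arrays in it, with a difference of -1.28 from the WT mean.

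Host genes differed less between the groups than the snoRNA genes they hold. The gene table placed 64 of the 73 snoRNA genes inside exactly 1 other gene, 6 inside more than 1 and 3 inside none (Snord118, Snord13 and Snord89). It carries no strand here, so a gene on the opposite strand may be counted as a host. For 55 snoRNA genes the single host was measured, 41 hosts in all. Host differences over replicates 1 and 2 ran from -0.26 to 0.40 with a median of -0.01, and 0 of 41 hosts passed a limma adjusted p of 0.05, nor did any have an unadjusted limma p under 0.05 (0 of 41). The snoRNA and its host had differences of the same sign in 29 of 55 pairs, with Pearson r of 0.24 and Spearman rho of 0.22 over the 55 pairs, which share arrays and, in part, hosts. By class the same sign was found in 14 of 23 H/ACA pairs (Pearson r 0.35, Spearman rho 0.49) and 15 of 32 C/D pairs (0.21 and 0.14).

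Rpsa shows the gap for the gene with the largest difference. The host of Snora62 read 10.80, 10.66 and 10.02 in WT and 10.66, 10.53 and 10.08 in PLZF_ON, a difference of -0.14 (SE 0.14, limma adjusted p = 0.867), beside -1.90 for the snoRNA. The 18 members held by a ribosomal protein gene alone were lower in 7 cases and higher in 11, with a median difference of 0.08. In PLZF_ON replicate 3 the hosts had a median difference from the WT mean of -0.37, from -1.96 to 0.32, and its correlation with that of their snoRNA genes was -0.08 (Pearson) and -0.13 (Spearman) over the 55 pairs.

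snoRNA genes that share a host gave the closest comparison, since they are cut from the same primary transcript if made from it. There were 11 such hosts with 25 members. The members of a host lay within a median of 0.23 of each other in the difference over replicates 1 and 2, and over 1 apart in 1 host, 2410002F23Rik, which holds Snord88a and Snord88c. In PLZF_ON replicate 3 minus the WT mean the median spread within a host was 1.34 and it was over 1 in 7 hosts. In 5 hosts the members had opposite signs, although in 2410002F23Rik one of them was at 0.01.

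Wdr43 held Snord92, at -3.41 with a level under background in PLZF_ON replicate 3, and Snord53, at 1.08, while the host itself was at -0.43. 2410006H16Rik held Snord49a at -1.86 (also under background there), Snord65 at -0.26 and Snord49b at 1.34, with the host at -1.42. Ncl, the gene of nucleolin, held Snord82 at -0.51 and Snora75 at 1.15, with the host at -0.33. The named partners Snord53, Snord49a, Snord82 and Snord88c were chosen after their values were seen, as members of those hosts. Snord65 read 8.31, 8.32 and 9.20 in WT and 8.36, 8.49 and 8.35 in PLZF_ON, and its difference of 0.11 over replicates 1 and 2 became -0.21 over all 6.

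**Figure D5:**
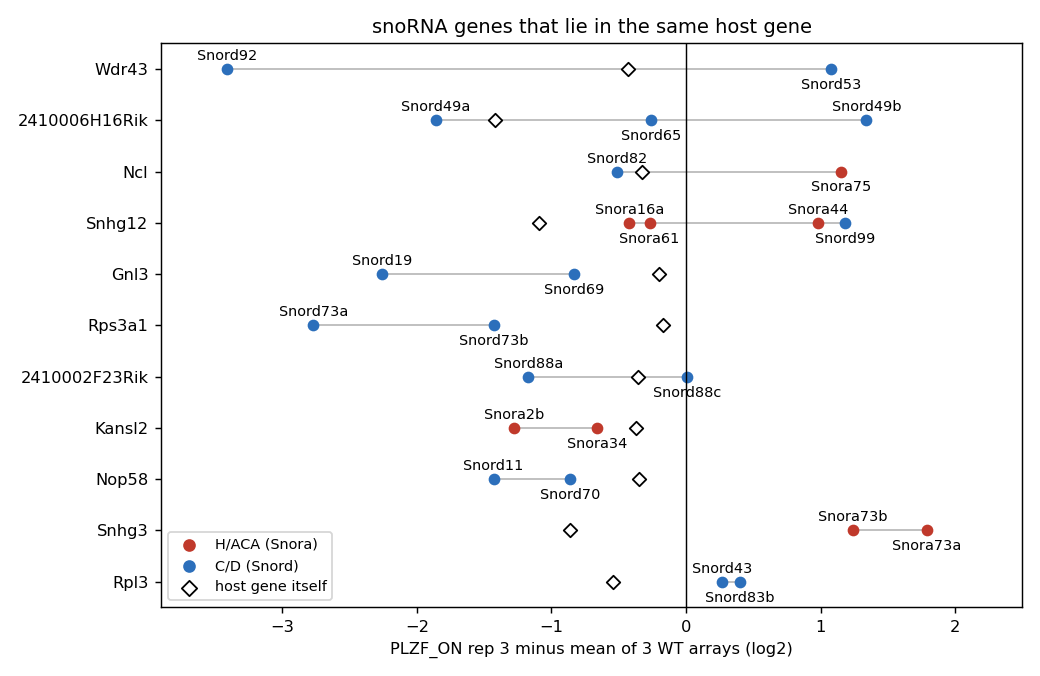
PLZF_ON replicate 3 minus the mean of the 3 WT arrays (log2, x axis) for snoRNA genes that share a host gene, one row per host, with the host itself as an open diamond. In the Wdr43 row the members lie at -3.41 and 1.08 with the host at -0.43.

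Many snoRNA host genes carry a start site rich in pyrimidines, the terminal oligopyrimidine motif known from ribosomal protein genes. The start regions of 4 hosts whose members had opposite signs in PLZF_ON replicate 3 are shown because one promoter serves several snoRNA genes there, and that of Rpsa because it holds Snora62. Each is given 5′ to 3′ on the transcript strand from RefSeq (GRCm38.p6), from 30 bases before to 20 bases from the annotated start, with capitals for the word CTTTT, the word CTTTC, the word CCTTT or the word CTCTT wherever one lies from 10 bases before to 20 bases after it.
2410006H16Rik, chr11:62602847-62602896, plus strand: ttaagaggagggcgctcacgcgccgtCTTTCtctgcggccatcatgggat
Snhg12, chr4:132308648-132308697, plus strand: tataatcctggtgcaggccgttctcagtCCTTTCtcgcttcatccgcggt
Wdr43, chr17:71616185-71616234, plus strand: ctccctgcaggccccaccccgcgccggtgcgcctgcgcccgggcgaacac
Ncl, chr1:86359436-86359485, minus strand: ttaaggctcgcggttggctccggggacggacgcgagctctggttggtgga
Rpsa, chr9:120127736-120127785, plus strand: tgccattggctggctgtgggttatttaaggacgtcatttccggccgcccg
In Snhg12 a match of CCTTT overlaps one of the word CTTTC. Of 35 hosts in the promoter table, 9 held at least 1 of the words in that window (25.7%), against 12.7% of all 27025 genes in it. The words were sought on the transcript strand only, and a match describes letters, not a used site.

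Genes of the snoRNA machinery and the listed non-coding host genes were not called in either comparison. In 6 lists, 0 genes passed a limma adjusted p of 0.05 over 4 or over 6 arrays. Over the 4 arrays 4 of 59 measured genes were higher with an unadjusted limma p under 0.05 (6.78%, near the 4.68% of all genes) and 0 were lower (4.5% of all genes). Of those 4, Shq1 and Wdr12 belong to the machinery, and Rian and Meg3 are non-coding host genes. Among the 6 H/ACA proteins 4 were lower and 2 higher over replicates 1 and 2, with a median of -0.08. Shq1, an assembly chaperone of dyskerin, had the largest difference, with 5.12, 5.18 and 5.57 in WT and 5.86, 6.37 and 5.58 in PLZF_ON (0.96, SE 0.20, limma adjusted p = 0.177). Dkc1, the pseudouridine synthase, read 7.82, 7.92 and 7.59 in WT and 7.80, 7.52 and 6.72 in PLZF_ON, a difference of -0.21 over replicates 1 and 2 (limma adjusted p = 0.786).

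Of 5 C/D core genes 4 were measured (Fbl was not analysed here), 2 lower and 2 higher, with a median of -0.09. Assembly and Cajal body genes (11) were lower in 3 and higher in 8, with a median of 0.11. Trimming and debranching genes (7) had a median of -0.07, and genes of ribosomal RNA transcription and processing (12) had one of 0.02. Each of these protein lists had a negative median in PLZF_ON replicate 3 minus the WT mean, from -0.51 for the H/ACA proteins to -0.31, beside -0.28 over all genes above background.

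Of 22 listed non-coding host genes 19 were measured, 8 lower and 11 higher over replicates 1 and 2, with a median of 0.01. Rian, a non-coding host of imprinted C/D snoRNAs, had the smallest limma adjusted p of the lists, 0.0684, with 2.81, 2.88 and 2.73 in WT and 3.92, 4.13 and 2.85 in PLZF_ON, all below the background level. Its difference was 1.17 (SE 0.14) over replicates 1 and 2, and PLZF_ON replicate 3 lay 0.04 above the WT mean. Meg3, its imprinted neighbour, read 4.80, 4.39 and 4.49 in WT and 5.23, 5.32 and 5.05 in PLZF_ON, a difference of 0.68 (limma adjusted p = 0.273). No member of the imprinted C/D clusters was among the 73 genes.

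The Scarna genes, whose RNAs guide modification of spliceosomal RNAs in Cajal bodies, also went both ways. Of 5 measured, 3 were lower and 2 higher over replicates 1 and 2. Scarna10, shown because it lay furthest from WT in PLZF_ON replicate 3, read 5.60, 5.37 and 6.38 in WT. It read 5.70 and 6.12 in PLZF_ON replicates 1 and 2, but 9.71 in replicate 3, which is 3.93 above the WT mean. The others lay at 0.33 (Scarna17), -0.33 (Scarna2), -0.68 (Scarna8) and -1.48 (Scarna6) from it, with a median of -0.33 over the 5.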

How the data were processed

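Total RNA of iNKT cells was measured on 6 Affymetrix whole-transcript arrays, 3 WT and 3 PLZF_ON. Per the submitters' processing notes the values were made with RMA (version not given in the sources used here), and the deposited values are on a log2 scale, judged from their range. Of 41345 deposited rows, 23521 have 1 gene symbol in the platform annotation and were tested, 1814 have several and 16010 are not listed in it. The number of arrays limits the precision.

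Differences were fitted with limma 3.58.1 (lmFit and eBayes, two-sided) in R 4.3.3 on all 23521 rows, with Benjamini-Hochberg adjustment over all of them. The scripts were tested on simulated data. Class values are counts and medians with no test. Tables and figures were made with pandas 2.3.3 and matplotlib 3.10.9.

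Members, lists and rules were chosen with earlier results of these data known. Named genes were, per class, the 4 largest differences in each direction among members whose groups do not overlap in replicates 1 and 2 and whose higher group mean is at least the median of all rows (5.07), the 5 highest means, the 4 furthest outside the other 5 arrays in each direction in PLZF_ON replicate 3, and up to 4 of each fixed subgroup. Symbols of all 73 members matched the RefSeq gene table (GRCm38.p6), which was used for names and for which gene contains which. That table gives no strand, so hosts were not limited to the same strand as planned. Alternatives were other sets of arrays, leaving out arrays, scaling, filters, array weights and a replicate block.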

Additional observations from a re-analysis of the deposited data

How the results depend on the processing

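Of 153 values of 11 named snoRNA genes under the alternatives, 148 kept their direction and their side of an adjusted p of 0.05. Some alternatives, such as the filters and the replicate block, leave the difference the same by construction, so this count says little about direction. Direction turned over all 6 arrays for Snora30 (0.57) and Snord65 (-0.21), and for Snord65 also over 5 arrays (-0.19), and Snord118 passed over 5 arrays (-1.22) and Snord88a without WT replicate 1 (-2.13). Over the 4 arrays 0 snoRNA rows passed under every scaling, filter and weighting tried, and leaving out each array gave 0 to 1 (Snord88a, limma adjusted p = 0.0271). Over all 6, array weights gave 1 (Snord118, limma adjusted p = 0.0164), in a fit where 259 of all 23521 rows passed in place of 22. Leaving out each array gave 0 to 1 (Snord118, without PLZF_ON replicate 3, where 107 of all rows passed). Leaving out each of the 4 arrays gave a median difference of -0.39 to -0.15 for H/ACA genes and -0.31 to 0.11 for C/D genes, a gap between the classes of -0.02 to 0.27, 38 to 56 members lower and 11 to 21 lower with an unadjusted limma p under 0.05, with 21 without WT replicate 1. Each of these fits leaves 1 array in a group, and the share of all genes that were lower or passed in it is not given here. The counts of 38 to 56 and of 11 to 21 thus cannot set the members apart from other genes. All 6 arrays gave a gap of -0.17, 8 members lower with no overlap (a wider group is harder to clear) and 5 with an unadjusted limma p under 0.05. In PLZF_ON replicate 3 the C/D median was 0.03 after quantile normalisation again and -0.37 after median centring, and the cause was not tested. Averaging a gene's rows gave 26 pairs of the same sign with the host in place of 29. A pairing by replicate number was not established: the correlation of deviations was 0.09, 0.25 and 0.24 for numbers 1, 2 and 3, and 5 of 6 arrays correlated best with their own number. With the number as a replicate block 0 snoRNA rows passed over 4 or 6 arrays (smallest limma adjusted p of 0.0544 and 0.0782), and over all rows 101 in place of 40 and 30 in place of 22 passed. With 2 arrays a group the precision is low.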

Other observations

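A further 43 rows carry a Snora or Snord symbol together with another gene's and were left out of the 73 genes. They hold 28 different sets of values, because 16 rows of Snord116 copies are identical. Over replicates 1 and 2, 18 were lower and 10 higher in PLZF_ON, with a median of -0.05, and 0 passed a limma adjusted p of 0.05 when all 41345 deposited rows were tested, as did 0 rows of that whole table. At an unadjusted limma p under 0.05 were 3 of the 28 (10.7%), against 7.36% of all deposited rows. Both rows shared by Snord1c and Snord1b were among them and higher (0.82 and 0.74), and the row of Snord32a was lower (-1.6). The row of Snord1b alone, among the 73 genes, went the other way (-0.37), all at low levels. The row shared by Snord15b and Rps3 was lower (-0.88), whereas Snord15a, in the same host, was higher (0.63). The Rpl13a cluster, from which several C/D snoRNAs are cut, is represented mainly here. The row shared by Snord32a and Rpl13a read 8.81, 9.88 and 10.16 in WT and 7.18, 8.31 and 10.35 in PLZF_ON. The row shared by Snord34 and Rpl13a read 4.47, 5.66 and 5.67 in WT and 5.44, 5.79 and 9.81 in PLZF_ON. The row shared by Snord57 and Nop56 read 7.14, 7.28 and 7.92 in WT and 6.95, 7.77 and 4.44 in PLZF_ON. In these rows, as among the 73 genes, PLZF_ON replicate 3 lay far above the WT mean in some and far below it in others. They were chosen after their values were seen.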
